A study of Mus musculus with 2 samples.

Results

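The genes described here are the receptors for serotonin, dopamine, noradrenaline, acetylcholine and histamine in the neonatal mouse left cerebral cortex. They were chosen by symbol, as every protein-coding gene named Htr, Drd, Adra, Adrb, Chrm or Hrh with a number, or Chrn with a subunit letter. This gave 53 genes among 21951 protein-coding genes and 55450 annotated genes. Total RNA was sequenced from the left cortex of female B6CASTF1/J mice, the first-generation hybrid of C57BL/6J and CAST/EiJ, at 4 days of age. There was 1 group of 2 libraries, biological replicates 1 and 2, each from 300 ng of RNA, with no treatment, mutant allele or other contrast. The sample descriptions number the animals differently but the donor label is the same for both, so the spread between the libraries covers the animal, the dissection and the library together. Variants of CAST/EiJ against the reference genome were not modelled.

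Monoamines and acetylcholine reach the cortex mainly through axons of cells that lie elsewhere: serotonin from the raphe nuclei, noradrenaline from the locus coeruleus, dopamine from the ventral midbrain, histamine from the hypothalamus and acetylcholine from the basal forebrain. Most of their receptors are G protein-coupled and act through Gs, which raises cyclic AMP, Gi, which lowers it, or Gq, which activates phospholipase C. The 5-HT3 and nicotinic acetylcholine receptors are instead pentameric ion channels opened by the transmitter, and their subunit genes differ between brain and muscle.

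The depth, as the sum of expected counts over genes, was 29280730 for replicate 1 and 28809312 for replicate 2. A gene with no count could hold up to 3 counts, or 0.102 and 0.104 ppm, and intervals and this limit cover counting error only, since no molecular identifiers are named in the sources used here. All 8 cortical projection neuron markers, all 8 inhibitory neuron markers and all 5 astrocyte and radial glia markers were detected, with Slc17a7 at 139.82 and 144.96 TPM. The libraries differed in choroid plexus and blood genes: all 8 choroid plexus and ependyma markers were higher in replicate 1, with summed levels of 223.79 and 8.54 TPM and Ttr at 206.4 and 1.94 TPM. All 5 erythroid genes were higher there too, summing to 476.51 and 62.93 TPM. In bulk tissue, fewer cells of a type and less RNA per cell cannot be told apart.

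Levels are given as TPM values, which scale each library to a fixed total and correct for transcript length, for replicate 1 and then replicate 2. They come from gene and transcript tables made from aligned reads, called the first table, and a second transcript table, made without that alignment, serves as a check. Genes at 1 TPM or more in each of the libraries were called detected. By this rule 33 of the 53 receptor genes were detected, or 62.3%, beside 59.8% of all protein-coding genes, so the share detected was near the background. The receptor genes sat low in the range of levels: 7 exceeded 10 TPM in both libraries, or 13.2%, beside 38.2% of nuclear protein-coding genes. None reached the 90th percentile of protein-coding genes, 54.23 and 55.38 TPM. Their median was 2.4 and 2.25 TPM, beside 3.98 and 4.35 TPM for protein-coding genes. All 53 together summed to 205.37 and 216.54 TPM, and the top 10 held 61.4% and 62.5% of that sum.

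Acetylcholine receptors held the largest summed level of the 5 transmitters, with the muscarinic genes at 51.92 and 55.94 TPM and the nicotinic genes at 48.56 and 51.07 TPM. The 14 serotonin receptor genes summed to 41.94 and 44.76 TPM, the 9 adrenergic genes to 34.56 and 33.9 TPM, the 5 dopamine genes to 16.61 and 17.9 TPM, and the 4 histamine genes to 11.78 and 12.97 TPM. The order of these 6 classes was the same in both libraries of the first table. In replicate 1 of the second table histamine, at 18.4 TPM, was above dopamine, at 17.5 TPM. By signalling route, the 10 Gq-coupled genes held the most, 70.18 and 72.89 TPM, with 9 of them detected. Chrm1 alone gave 28.43 and 31.57 TPM of this sum and of the muscarinic sum. The first places of the Gq-coupled route and of the muscarinic class both rested on this gene. The 16 Gi-coupled genes, 12 detected, summed to 51.76 and 56.08 TPM. The 18 channel subunit genes, 6 detected, came to 50.69 and 53.55 TPM, overlapping the range of the Gi-coupled sum. Gs-coupled genes were lowest, with 6 of 9 detected and 32.74 and 34.02 TPM in all.

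Among muscarinic receptors, all 5 genes were detected and Chrm1 led. Chrm1, the Gq-coupled M1 receptor of cortical and hippocampal projection neurons (chr19:8663789-8683587, plus strand), was at 28.43 and 31.57 TPM on 2579 and 2659 counts, or 30 ± 2.22 TPM (SD, n = 2). It was the highest of the 53 genes in both libraries and its range did not overlap that of the next gene. Chrm3, the Gq-coupled M3 receptor (chr13:9875486-10360847, minus strand), was at 12.17 and 12.3 TPM. Chrm4, a Gi-coupled receptor, stood at 5.53 and 5.36 TPM. Chrm2, the other Gi-coupled member and a presynaptic autoreceptor on cholinergic axons, was at 3.39 and 4.62 TPM, below Chrm4 in both libraries. Chrm5, Gq-coupled, was lowest at 2.4 and 2.09 TPM. The 3 Gq-coupled muscarinic genes summed to 43.0 and 45.96 TPM and the 2 Gi-coupled genes to 8.92 and 9.98 TPM, ranges that do not overlap.

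Of the 16 nicotinic subunit genes, 5 were detected. Chrna4 and Chrnb2 encode the subunits of the main high-affinity nicotine binding receptor of the brain. Chrna4 (chr2:181018380-181043546, minus strand) was at 15.76 and 16.65 TPM, or 16.2 ± 0.629 TPM (SD, n = 2). Chrnb2 (chr3:89746195-89764632, minus strand) was at 14.46 and 14.49 TPM, below Chrna4 in both libraries with no overlap of ranges. Chrna7, which forms homomeric, calcium-permeable receptors, was at 10.9 and 13.25 TPM. Its range (SD 1.66 TPM, n = 2) includes the levels of Chrm3, its neighbour in the order. Chrna5, an accessory subunit of alpha4 beta2 receptors, was at 4.29 and 3.9 TPM, and Chrna3, the ganglionic alpha subunit, at 1.92 and 1.96 TPM.

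The other 11 nicotinic genes fell below 1 TPM in both libraries. Chrnb1, the muscle beta subunit, had the highest mean of them, at 0.59 and 0.24 TPM on 12 and 9 counts. Chrna2 followed at 0.25 and 0.28 TPM on 13 and 12 counts. This order rested on replicate 1, since Chrna2 was the higher in replicate 2. In protein-coding transcripts alone Chrnb1 was at 0.24 TPM in each library. In the second table the mean of Chrna2, 0.892 TPM, was above that of Chrnb1, 0.789 TPM. Chrna1, the muscle alpha subunit, had 8 and 5 counts. The muscle delta and gamma subunits Chrnd and Chrng, adjacent on chromosome 1, had 0 counts in both libraries. Chrne, the adult muscle subunit, had 0 and 2 counts. Chrna9 and Chrna10, the subunits of cochlear hair cell receptors, had 1 and 0, and 1 and 2 counts. Chrna6 and Chrnb3, subunits of dopamine neuron receptors, had 2 and 1, and 4 and 0 counts, and Chrnb4, usually a partner of Chrna3, had 8 and 3. Of the 6 skeletal muscle markers 2 were detected, Acta1 at 2.68 and 2.73 TPM and Myh3 at 1.13 and 1.1 TPM, while the muscle regulators Myod1 and Myog were at 0 and 0.03 TPM and at 0 and 0.04 TPM. Their part in the counts of the muscle subunits was not tested.

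Several nicotinic genes lie next to each other with different levels. Chrna5, Chrna3 and Chrnb4 are neighbours on chromosome 9, with gaps of 2.33 and 1.59 kb, and had means of 4.1, 1.94 and 0.075 TPM. Chrna5 was higher than Chrna3, and Chrna3 higher than Chrnb4, in both libraries. Chrnb3 and Chrna6, 3.48 kb apart on chromosome 8, had at most 4 counts each in a library. In the serotonin channel pair, Htr3a averaged 2.29 TPM and its neighbour Htr3b, 23.9 kb away, 0.02 TPM.

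Of the 14 serotonin receptor genes, 12 were detected. Htr2c, the Gq-coupled 5-HT2C receptor (chrX:146962513-147197277, plus strand), was the highest at 7.93 and 7.71 TPM. Choroid plexus epithelium is known for dense Htr2c, and the summed choroid plexus markers were 223.79 and 8.54 TPM in the same libraries. Their part in the Htr2c level was not tested. Htr2a, the Gq-coupled receptor through which classical psychedelics act, was at 3.71 and 4.28 TPM. Htr2b, the third Gq-coupled member, had 1 and 0 counts. The Gs-coupled genes were all detected, with Htr7 at 6.12 and 5.67 TPM, above Htr4 at 2.61 and 2.62 TPM and Htr6 at 2.67 and 2.54 TPM. Htr4 and Htr6 overlapped each other. Protein-coding transcripts held 58.9% of the Htr7 level, or 3.47 TPM on average.

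All 6 Gi-coupled serotonin receptor genes passed the detection level. Htr5a was at 4.24 and 5.4 TPM. Htr1b, known from axon terminals, among them those of thalamic neurons in early postnatal sensory cortex, was at 3.64 and 5.16 TPM. Htr1a, the somatodendritic autoreceptor of raphe neurons that cortical neurons also carry, was at 3.45 and 4.19 TPM. Htr1b overlapped both of the others, while Htr5a was above Htr1a in both libraries. Htr1d followed at 3.02 and 1.68 TPM, Htr1f at 1.18 and 1.68 TPM and Htr5b at 1.21 and 1.35 TPM. Htr1d was the detected member with the widest spread between libraries in log2 TPM, -0.85. Its counts, 97 and 74, were closer than its levels. The 363-base noncoding transcript Htr1d-204 was given 6.72 and 1.17 counts but 1.31 and 0.24 TPM of the gene's level. The main coding transcript, Htr1d-201, was at 1.5 and 1.29 TPM.

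Of the 2 serotonin channel genes, Htr3a, the obligate subunit of 5-HT3 receptors and a marker of a class of cortical interneurons, was at 2.11 and 2.46 TPM on 78 and 88 counts. Htr3b, which forms heteromers with it, had 1 count in each library.

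Alternative stretches in serotonin receptor transcripts are shown because the shares of the forms that hold them bear on which receptor protein the level stands for. They were chosen after their values were seen. Sequences were read 5′ to 3′ from the GENCODE M21 transcripts (mm10). Capitals mark the stretch in the form that holds it and, in the joined form, the 4 bases around the junction. The stretches lie at chrX:147169676-147169770 (Htr2c, plus strand, 95 bases), chr9:48899991-48900008 (Htr3a, minus strand, 18 bases) and chr19:35969304-35969308 (Htr7, minus strand, 5 bases).
Htr2c-201: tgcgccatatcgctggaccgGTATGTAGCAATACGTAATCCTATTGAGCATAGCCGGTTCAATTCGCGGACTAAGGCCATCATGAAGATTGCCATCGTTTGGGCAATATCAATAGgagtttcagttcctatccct
Htr2c-207: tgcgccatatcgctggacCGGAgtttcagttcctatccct
Htr3a-201: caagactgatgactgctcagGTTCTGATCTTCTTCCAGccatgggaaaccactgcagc
Htr3a-202: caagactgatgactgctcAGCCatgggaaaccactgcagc
Htr7-205: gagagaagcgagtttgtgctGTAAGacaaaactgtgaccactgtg
Htr7-202: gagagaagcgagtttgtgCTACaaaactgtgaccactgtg

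The Htr2c stretch is known for its RNA editing sites and for an alternative donor that yields a truncated receptor. Editing was not measured here. With the stretch, the coding length of Htr2c-201 is 1377 bases, and without it that of Htr2c-207 is 516 bases. Among the forms that cover this stretch, the short form took 5.66% of 641.56 estimated counts in replicate 1 (95% Clopper-Pearson interval on rounded counts 3.96 to 7.68) and 22.8% of 592.11 in replicate 2 (19.5 to 26.4). In the second transcript table its share was 4.12% and 19.8%. The shares were further apart between the libraries than their counting intervals in both tables, and the full-length form led in both libraries. The choroid plexus markers differed between the same libraries in the opposite direction, and their part in this share was not tested.

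The Htr3a stretch keeps the reading frame and separates coding lengths of 1467 and 1449 bases. The form that holds it took 15.1% of 78 counts in replicate 1 (8.21 to 25.3) and 51.0% of 88 in replicate 2 (40.2 to 61.9), and 7.87% and 39.1% in the second table. Again the counting intervals did not overlap in either table, though both forms rest on few counts. Htr3a-201 is 2082 bases long and Htr3a-202 1987 bases, so they also differ outside the 18-base stretch. Their shares are therefore not a measure of that stretch alone. For Htr7 the shares lay closer. Htr7-205, which ends in another C terminus, took 15.9% and 21.1% of the counts of Htr7-202, Htr7-204 and Htr7-205 together, and 22.7% and 32.1% in the second table. At 3079 bases, beside 3057 for Htr7-202, it too differs outside its 5-base stretch. The form with a 58-base extra exon, Htr7-204, annotated for nonsense-mediated decay, took 26.2% and 34.0%, and 28.7% and 33.4% in the second table. Htr7-206, another transcript annotated for nonsense-mediated decay, was left out of these shares and held 23.2% and 10.4% of the gene's TPM in the first table and 32.6% and 20.5% in the second. These intervals cover counting error only and not the division of shared reads between forms.

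**Figure D1:**
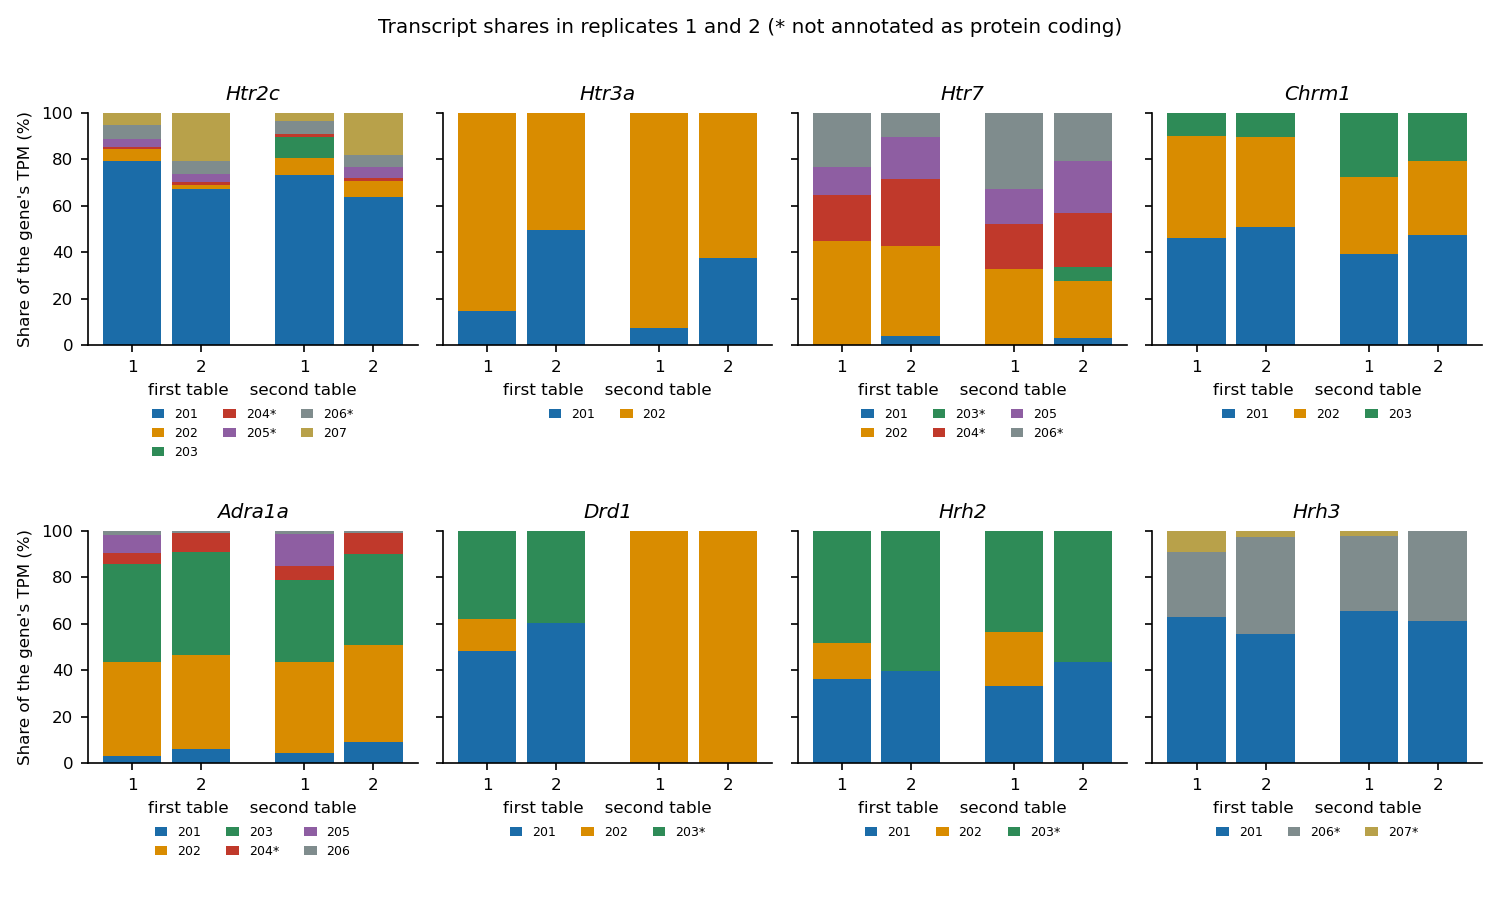
Share of each transcript in its gene's level (vertical axis, percent of TPM) for 8 receptor genes, in replicates 1 and 2 of the first table (left pair of bars) and the second table (right pair). Numbers are transcript names, and transcripts under 1% in every bar are left out. Htr3a-201 and Htr2c-207 take a larger share in replicate 2 than in replicate 1 in both tables, while Drd1 is split 3 ways in replicate 1 of the first table and lies almost wholly in Drd1-202 in the second.

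Among dopamine receptors, the D1-like Drd1 and the D2-like Drd2 were detected. Drd1, Gs-coupled (chr13:54051183-54055705, minus strand), was at 12.17 and 13.9 TPM on 530 and 564 counts, the fourth highest mean of the members in the first table, and overlapped Chrm3 and Chrna7. Its level depended on the transcripts counted. The 405-base noncoding Drd1-203 was given 27.58 and 31.08 counts but 4.64 and 5.49 TPM, and its level was 0 in the second table. Without noncoding transcripts Drd1 averaged 7.97 TPM. In the second table it averaged 11.5 TPM, below Chrm3 at 18.9, Chrna7 at 17.1 and Adra2a at 14.6 TPM. Drd2, Gi-coupled, was at 3.37 and 2.81 TPM, below Drd1 in both libraries. Both genes are abundant in the striatum, which underlies the cortex. All 9 striatal markers were detected, at summed levels of 101.92 and 106.37 TPM, led by Ppp1r1b at 29.51 and 26.52 TPM, and several are expressed in cortex as well. The part of striatal tissue in the Drd1 and Drd2 levels was not tested. Drd5, the other D1-like gene, was just under the detection level at 0.79 and 0.69 TPM. Drd4 had 3 and 7 counts and Drd3 2 and 7.

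Of the 9 adrenergic genes, 6 were detected. Adra2a, the Gi-coupled receptor on noradrenergic terminals and cortical neurons (chr19:54044151-54048982, plus strand), led at 10.2 and 10.71 TPM. Adra2c stood at 3.96 and 3.86 TPM, below Adra2a in both libraries, and Adra2b at 0.17 and 0.14 TPM was not detected. Of the Gs-coupled beta receptors, Adrb1 was at 6.03 and 6.08 TPM and Adrb3, the receptor of fat tissue, at 0.13 and 0.09 TPM. All 3 Gq-coupled alpha1 genes were detected, with Adra1b at 5.51 and 5.17 TPM, Adra1a at 5.36 and 5.1 TPM and Adra1d at 2.72 and 2.25 TPM. Adra1a and Adra1b overlapped, and Adra1d was below them in both libraries.

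Among histamine receptors, Hrh3, the Gi-coupled autoreceptor and heteroreceptor of the brain (chr2:180099465-180104488, minus strand), was highest at 8.08 and 8.62 TPM. Hrh1, the Gq-coupled target of sedating antihistamines, was at 1.92 and 2.42 TPM, and Hrh2, Gs-coupled and known from gastric acid secretion, at 1.74 and 1.93 TPM. Hrh4, the receptor of blood cells, had 1 and 0 counts. As for Htr7 and Drd1, much of the Hrh2 and Hrh3 levels lay in transcripts not annotated as protein coding. Hrh2-203, annotated for nonsense-mediated decay, led its gene at 54.2% ± 8.36 (SD, n = 2), and protein-coding transcripts held 45.5% of the Hrh2 level. That is 0.835 TPM, under the detection level. For Hrh3 the 1040-base retained-intron transcript Hrh3-206 took 28.0% and 41.8% of the TPM, and 59.2% lay in protein-coding transcripts. By count Hrh3-206 took less, 12.9% and 20.9%, and the coding Hrh3-201 took 80.6% and 77.1%.

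Counted by transcript, 23 of the 33 detected genes had several annotated transcripts. The transcript with the highest mean level was the same in both tables for 19 of them. The exceptions were Adra1a, Chrna5, Drd1 and Hrh1. For Adra1a the leaders, 203 at 43.0% in the first table and 202 at 40.5% in the second, were close to the 40.6% and 37.2% of the other form. Chrna5-202 led the first table at 53.3% and Chrna5-204 the second at 49.9%. Hrh1-203 held 70.7% in the first table, where Hrh1-205, leader of the second at 47.8%, was given 0. Both have the same coding length, 1464 bases, as do Chrm1-201 and Chrm1-202, which share 1380 bases and took 48.6% and 41.2% of the Chrm1 level in the first table. The leader held over 80% in 6 genes, among them Chrnb2 at 95.9% and Chrna4 at 95.6%. It was the same in both libraries for 22 of 23 genes in each table, the exceptions being Htr6 in the first and Htr4 in the second.

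Gene levels of the 33 detected members were higher in the second table by a median ratio of 1.44, beside 1.51 over 13114 detected nuclear protein-coding genes, so the shift was general. The ratio ran from 0.884 for Drd1 to 1.77 for Adrb1, and no member differed over 2-fold. The Adrb1 level includes the 494-base noncoding Adrb1-202, at 0.52 and 0.41 TPM in the first table. In the second it was given 1.45 and 3.7 TPM on 3.63 and 9.08 estimated counts. The coding Adrb1-201 was at 5.5 and 5.67 TPM in the first table and 8.09 and 8.16 TPM in the second. Across these 33 genes, Spearman's rho between the tables was 0.986, where both tables come from the same reads. The posterior SD of the count, a score for reads shared between genes, was 0 for all 53 members, while it was above 0 for 2375 of 13127 detected protein-coding genes. An annotated gene on the other strand overlapped 10 of the detected members, Chrnb2 with Adar among them. Whether counting used the strand is not given in the sources used here, so reads of such pairs may not be separated.

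**Figure D2:**
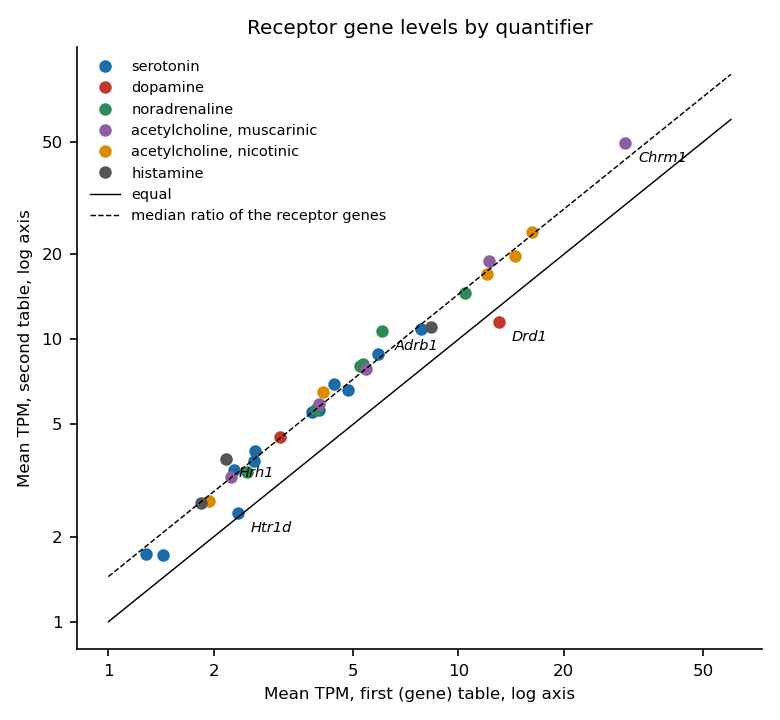
Mean level of each of the 33 detected receptor genes in the first table (horizontal axis, TPM, logarithmic) and in the second table (vertical axis, TPM, logarithmic), coloured by transmitter. The solid line marks equal levels and the dashed line the median ratio of 1.44, and Drd1 is the point under the solid line, at a ratio of 0.884.

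The libraries were compared gene by gene with an exact two-sided binomial test on rounded expected counts, adjusted by Benjamini-Hochberg over the 18482 genes that had 20 or more counts in all. Its p-values measure counting error between these 2 libraries and compare no conditions. Of the 38 members tested, 0 were apart by 2 criteria together, an adjusted p below 0.05 and at least a doubling or halving (log2 ratio beyond 1 in size), beside 2.84% of all genes tested. At an unadjusted p under 0.05 there were 7, with a background of 34.1%. Without the fold requirement 3 members passed, beside 24.9% of all genes. Htr1b counts were 258 and 371, a ratio of replicate 2 to replicate 1 of 1.42 (95% interval 1.21 to 1.67, exact test, adjusted p = 0.000204). Htr5a counts were 434 and 527, a ratio of 1.20 (1.05 to 1.36, adjusted p = 0.0291). Chrm3 went the other way, with 901 and 788 counts and a ratio of 0.862 (0.782 to 0.949, adjusted p = 0.0134). Its gene TPM levels were nearly equal, but they include the 584-base noncoding Chrm3-203, given 0 and 8.12 counts and 0 and 0.91 TPM. In protein-coding transcripts alone Chrm3 was at 11.62 and 10.71 TPM. Over the 38 members the log2 ratio ran from -0.42 to 0.50, 23 were higher in replicate 1 and 15 in replicate 2, and the median was -0.07, beside -0.01 over all genes tested.

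**Figure D3:**
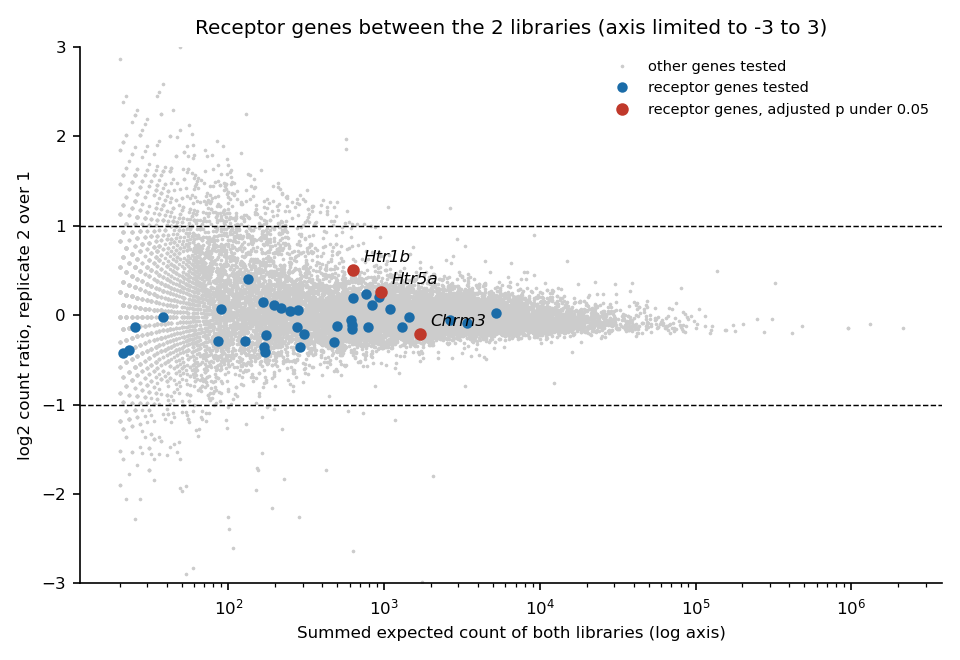
Log2 ratio of scaled counts, replicate 2 over replicate 1 (vertical axis, 0.5 added to each count), against the summed expected count (horizontal axis, logarithmic) for the 38 receptor genes tested and the other genes tested. All 38 lie between -0.42 and 0.50, inside the dashed lines at a log2 ratio of 1 in size, and Htr1b, Htr5a and Chrm3 are the 3 with an adjusted p under 0.05.

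The receptor genes differ in gene structure. Of the 35 G protein-coupled receptor genes 27 were detected, and of the 18 channel genes 6, beside 59.8% of all protein-coding genes. Among the G protein-coupled genes, 17 have 1 coding exon, of which 14 were detected, including Chrm1, Chrm3, Drd1 and Adra2a. The other 18 have several, of which 13 were detected. All channel genes have several coding exons, from 5 to 12, so exon number and receptor type cannot be told apart between the types. Coding lengths overlap between the types, at 1071 to 1767 bases for the G protein-coupled genes and 1311 to 2181 bases for the channels.

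Upstream sequence was described for CG pairs, the dinucleotides of CpG islands, and for short motifs. RefSeq windows of the 250 bases before a transcript start (GRCm38.p6) matched 40 of the 53 genes, with 49 windows. Taking the window richest in CG pairs for each gene, the 27 detected genes had a median of 15 CG pairs (range 2 to 42) and the 13 undetected genes a median of 3 (range 1 to 35), while the median over all 32851 windows was 6. The ranges overlap, and no test was made. Windows of all genes were not split by detection, so this difference cannot be called particular to the receptor genes. The letters GGGCGG, searched on both strands, were in a window of 18 of the 27 detected and 4 of the 13 undetected genes, beside 32.7% of all windows. TATAAA, searched on both strands, was found for 2 members, beside 12.4% of all windows. All 7 genes with several windows were detected genes. Taking the richest window or any match could therefore raise the detected group only, and the values over all windows are per window, not per gene. Across the 40 genes Spearman's rho between CG pairs and mean TPM was 0.557, where genes of a family share ancestry and base composition. Exceptions lay on both sides: Drd5 had 35 CG pairs, Adra2b 23, Chrnb1 14 and Drd4 12 without being detected, and Chrm5 was detected with 2. Windows were not filtered for exon overlap. That of Drd5 lay wholly in an annotated exon, as did those of the detected Adra2a and Chrm2, and that of Chrnb1 overlapped one by 120 bases.

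**Figure D4:**
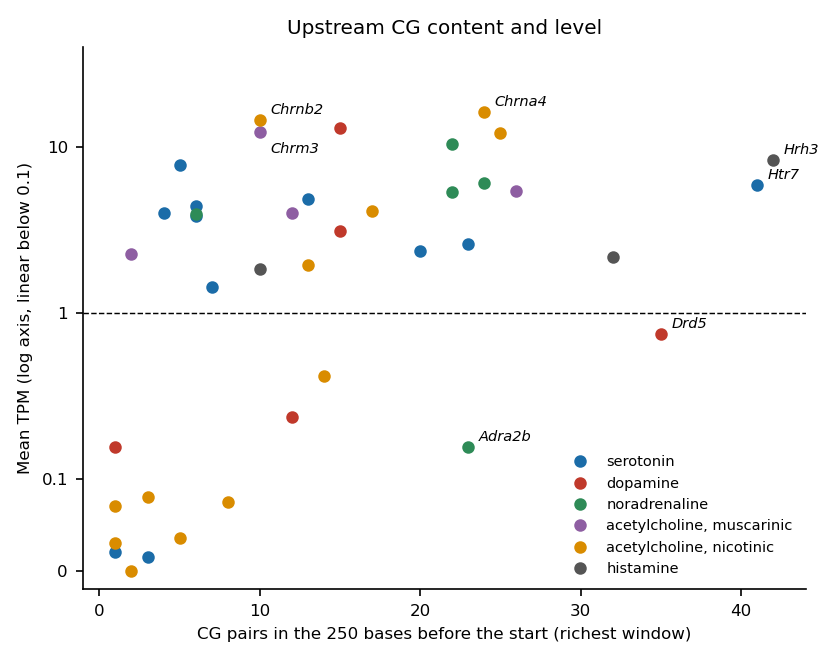
Mean level of 40 receptor genes (vertical axis, TPM, logarithmic above 0.1 and linear below) against the number of CG pairs in the richest 250-base upstream window (horizontal axis), coloured by transmitter. Of the genes below the dashed line at 1 TPM, Drd5 with 35, Adra2b with 23, Chrnb1 with 14 and Drd4 with 12 have the most CG pairs.

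The windows of 3 nicotinic genes, picked by name, are shown, and none of them overlaps an annotated exon. Other nicotinic windows without exon overlap are not shown: that of Chrna9, not detected, had 5 CG pairs and 1 of the detected Chrna5 had 3. All 3 shown hold fewer CG pairs than the median of the detected genes. The richer windows of Chrna4, with 24, and Chrna7, with 25, overlap annotated exons. Chrnb2, a brain subunit, has 10 CG pairs (chr3:89764633-89764882). Chrna3, a ganglionic subunit, has 13 and 1 GGGCGG match (chr9:55026563-55026812), and Chrna1, a muscle subunit, has 3 (chr2:73580339-73580588). All are on the minus strand, written 5′ to 3′ in the direction of the gene. Capitals mark a GGGCGG match, which reads CCGCCC on this strand.
Chrnb2: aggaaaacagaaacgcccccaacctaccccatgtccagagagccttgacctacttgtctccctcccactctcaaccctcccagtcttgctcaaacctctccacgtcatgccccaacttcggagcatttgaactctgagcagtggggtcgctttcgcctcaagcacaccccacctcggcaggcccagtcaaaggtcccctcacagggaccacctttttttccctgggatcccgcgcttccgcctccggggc
Chrna3: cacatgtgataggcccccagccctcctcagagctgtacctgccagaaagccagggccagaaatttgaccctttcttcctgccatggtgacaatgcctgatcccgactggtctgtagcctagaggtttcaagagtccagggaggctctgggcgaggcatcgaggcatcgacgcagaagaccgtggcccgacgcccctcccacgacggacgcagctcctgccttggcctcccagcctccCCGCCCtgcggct
Chrna1: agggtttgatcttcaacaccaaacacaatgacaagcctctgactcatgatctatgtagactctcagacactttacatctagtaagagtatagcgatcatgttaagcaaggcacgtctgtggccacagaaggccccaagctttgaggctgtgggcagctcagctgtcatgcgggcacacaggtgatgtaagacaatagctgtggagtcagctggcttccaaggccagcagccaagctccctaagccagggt

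The genes that make these transmitters were mostly below the detection level, while most of those that break them down or transduce the signal were above it. Of 8 synthesis genes, 1 was detected: Ddc, the shared decarboxylase of serotonin and dopamine synthesis, at 2.22 and 1.82 TPM. Th, the first enzyme of dopamine synthesis, was at 0.86 and 0.84 TPM, Tph2 of serotonin synthesis at 0.22 and 0.24 TPM, Dbh of noradrenaline synthesis at 0.17 and 0.15 TPM and Chat of acetylcholine synthesis at 0.19 and 0.3 TPM. Hdc, which makes histamine, was at 1.33 and 0.57 TPM. Of 11 transporters 3 were detected, with the low-affinity monoamine transporter Slc29a4 at 65.56 and 63.14 TPM and the vesicular transporter Slc18a2 at 2.63 and 2.96 TPM, while the serotonin transporter Slc6a4 was at 0.56 and 0.71 TPM.

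Of 7 breakdown genes 6 were detected. Ache, which splits acetylcholine, was at 34.13 and 33.67 TPM, Maoa at 19.58 and 19.39 TPM and the histamine methyltransferase Hnmt at 8.45 and 8.71 TPM, while Aoc1 had 0 counts in both libraries. Of 9 nicotinic accessory genes 8 were detected, led by Ly6h, which modulates alpha7 receptors, at 289.74 and 288.41 TPM. The chaperones of nicotinic assembly Tmem35a, at 54.44 and 58.21 TPM, and Ric3, at 22 and 19.59 TPM, were above every nicotinic subunit gene in both libraries. Rapsn, the muscle synapse scaffold, was at 0.11 and 0.18 TPM.

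Of 12 G protein alpha subunit genes 11 were detected, and Gnas, the Gs subunit, at 859.18 and 833.04 TPM, Gnao1 at 487.74 and 508.48 TPM and the Gq subunit Gnaq at 119.6 and 117.41 TPM each exceeded the highest receptor gene in both libraries. All 7 receptor kinase and arrestin genes and all 14 effector genes were detected, among them the adenylyl cyclase Adcy1 at 155.7 and 162.76 TPM and the phospholipase Plcb1 at 48.68 and 54.0 TPM. Both also lay above every receptor gene. Marker lists of the cells that make the transmitters are largely the same synthesis and transport genes, so their counts are no separate observation. Of the 5 basal forebrain cholinergic markers 1 was detected, Lhx8 at 4.2 and 2.4 TPM, and of the 8 brainstem monoamine markers 1, Slc18a2.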

How the data were processed

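Total RNA from the left cerebral cortex was measured in 2 libraries of 1 group, numbered as in the labels. Each library had 3 deposited tables. The authors made the first gene and transcript tables from transcriptome alignments and the second transcript table directly from the reads, per the deposited file descriptions, which name mm10 and GENCODE M21. Column names are those of RSEM and kallisto per the file headers, and no aligner or tool version is named in the sources used here. The deposited counts are expected or estimated counts, in which the authors' tools split shared reads. TPM, as deposited, divides by effective length and scales each table to the same total over all its entries, per the file headers. The deposited posterior standard deviation of the count was used as a score of read sharing.

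Symbols came from the second table and were joined by gene identifier. Levels are TPM values with no pseudocount or filter. Spike-ins and entries with no gene identifier stayed out of gene totals. Between libraries, expected counts were rounded and compared with a conditional binomial test, exact and two-sided, with TMM-scaled library sizes (edgeR 4.0.16, factors 0.984 and 1.02), for a summed count of at least 20. Benjamini-Hochberg adjustment ran over all genes tested. Log2 ratios had 0.5 added to each count. The code was checked on simulated counts. DESeq2 1.42.0 size factors, total counts, no count minimum, other TPM thresholds and denominators, protein-coding transcripts only, the second table and each library left out were tried as alternatives. Python 3.11.15, numpy 2.4.6, pandas 2.3.3, scipy 1.17.1, matplotlib 3.10.9 and R 4.3.3 were used.

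The members, the lists of related genes and markers, and the tests were chosen with earlier results of these data known. Some results are not reported here. Every detected member is named with its values in both libraries, most others by counts with the highest and lowest of a class. Of each related list up to 4 genes of the highest and 2 of the lowest mean were to be named, or the markers of a cell type with the highest means and those at 0, and further genes of a list were added after their values were seen. All 15 marker lists, by number detected, were: cortical projection 8 of 8, inhibitory 8 of 8, astrocyte and radial glia 5 of 5, oligodendrocyte precursor 5 of 5, microglia 5 of 5, endothelial and mural 6 of 6, meninges 5 of 5, choroid plexus and ependyma 3 of 8, striatum 9 of 9, thalamus 5 of 6, habenula 1 of 3, basal forebrain cholinergic 1 of 5, brainstem monoamine 1 of 8, skeletal muscle 2 of 6 and erythroid 4 of 5.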

Additional observations from a re-analysis of the deposited data

How the results depend on the processing

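The number of detected receptor genes was 33 in the second table and with either library left out, 34 at a TPM of at least 0.5 and when TPM was rescaled to nuclear protein-coding genes (Drd5 was gained in both), 32 with protein-coding transcripts only (Hrh2 was lost) and 27 at a TPM of at least 2. The number of members apart between the libraries was 0 with DESeq2 size factors, total counts, no count minimum and second-table counts. It was 3 of 38 tested with no fold threshold, beside 24.9% of all genes tested. With no fold threshold it was also 3 with DESeq2 size factors, 4 with total gene counts and 7 in the second table, which were added after the data were seen. The share over all genes was not computed under the alternative scalings, count minimum or second table. The member counts there have no background and cannot be read as a trait of the receptor genes. The cause of these differences was not tested. The leading transcript was the same in both tables for 19 of 23 genes by count too, for 16 of 20 with protein-coding transcripts only, and for 18 with either library left out. Single levels moved by more than 1 SD for 31 of 33 genes in the second table, for all 33 on the rescaled denominator and for 10 with protein-coding transcripts only. Nuclear protein-coding genes held 50.3% and 51.1% of TPM, so rescaling raised every level alike and its count says nothing on single genes. The second-table moves include the general shift, a median ratio of 1.51 over detected nuclear protein-coding genes. With a library left out 1 library remains, so the comparison between libraries had no value. No paired analysis was possible because there is 1 group. Undetected genes had at most 47 counts and detected genes at least 43, so the TPM threshold and not a count separates them, and the transcript shares of Htr3a rest on 78 and 88 counts. With 1 tissue, age and sex, no difference between conditions could be measured.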
